A study of Papio hamadryas with 72 samples.

Results

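Cytochrome P450 enzymes were described in liver, skeletal muscle (vastus lateralis) and omental adipose tissue of juvenile baboons. The genes were taken from probes to which the annotation gave a single symbol. Every such symbol made of CYP, a number, a letter and a number was used, without pseudogenes. This gave 43 genes of the 16828 symbols on the array, and CYP7A1 and CYP7B1 were not among them. These 43 genes had 60 probes, and 14 of them had more than 1 probe. A gene was used in a tissue where 6 or more of that tissue's 24 arrays gave a probe a detection score over 0.95, and its brightest such probe stood for it. By this rule 30 of the 43 genes were detected in liver, 10 in muscle and 12 in adipose tissue, and 11 were detected in none.

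The animals were the offspring of baboon mothers that ate a reduced diet during pregnancy and lactation (maternal undernutrition, MUN) or ate freely (CON), with 6 animals in each maternal group, 3 of them female and 3 male. All ate chow after weaning. At 4.5 years of age each animal was biopsied after an overnight fast, then ate a diet high in fat, sugar and salt with a fructose drink (HFCS) for 7 weeks and was biopsied again, so each tissue had 24 arrays in 4 groups of 6: CON on chow, MUN on chow, CON on HFCS and MUN on HFCS. The chow and HFCS biopsies came from the same 12 animals and no animal stayed on chow, so an effect of the diet and an effect of the passing weeks or of the earlier biopsy cannot be told apart. The arrays were Illumina HumanHT-12 v4, whose probes were designed on human sequence.

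P450 enzymes are membrane-bound proteins that hold a heme group and insert an oxygen atom into fat-soluble molecules, taking their electrons from partner proteins such as P450 oxidoreductase. Hepatocytes are the main site of the forms that act on drugs, other foreign molecules and alcohol, and they also hold the forms that turn cholesterol into bile acids. Other forms make steroid hormones, control the active forms of vitamins A and D, or hydroxylate fatty acids and their signaling derivatives.

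All levels are log2 signals after quantile normalization. Each probe has its own response, so a level was compared between arrays and not between genes. Levels set across tissues were normalized over all 72 arrays together, and levels within a tissue were normalized over that tissue alone or, where 1 or more arrays were left out, over the arrays that remained, so that the same array can have slightly different values in these settings. A gene was called at an adjusted p under 0.05 in limma, corrected over all genes tested, with a fold change of at least 1.2. The limma p-values set a difference against the spread between arrays. Unless the animal is named in a fit, arrays were treated as independent, although the same animals gave the arrays of both diets and all tissues. In tissue biopsies, fewer cells of a type and less RNA per cell cannot be told apart.

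Of the 72 arrays, 4 stood apart from the others of their tissue, with a median correlation under 0.9. In liver these were both arrays of MUN replicate 4 (0.501 on chow, 0.092 on HFCS) and the chow array of MUN replicate 6 (0.675), and in muscle the chow array of CON replicate 5 (-0.007). All 4 came from males, and they are called weak arrays here. The other arrays had median correlations of 0.966 to 0.978 in liver, 0.94 to 0.975 in muscle and 0.963 to 0.979 in adipose tissue. The 12 hepatocyte markers summed to 99.04 to 118.32 on the 3 weak liver arrays against 144.68 to 151.12 on the other 21, and all 12 were detected in liver. The 8 detected muscle fiber markers of 9 summed to 67.27 on the weak muscle array against 104.25 to 108.8 on the others. A further muscle array, CON replicate 1 on chow, had an albumin (ALB) signal of 14.32, and its 3 detected hepatocyte markers of 12 summed to 37.77 against 21.19 to 21.97 on the remaining arrays. Results are therefore given with and without the weak arrays, and tissue comparisons also without the muscle array with high ALB.

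Liver was the tissue in which most P450 genes were detected. By the same rule 8685 of all 16828 symbols were detected in liver, 8052 in muscle and 9277 in adipose tissue, so over all genes adipose tissue had the most. Of the 32 genes detected in any tissue, 8 were detected in all 3 tissues, 20 in liver only, and 2 (CYP1B1 and CYP4F3) outside liver only. Among the 14 genes of drug and foreign molecule metabolism, 10 were detected in liver and 1 in muscle and in adipose tissue. All 3 bile acid genes analysed, which did not include CYP7A1 and CYP7B1, were detected in liver and 2 of them in muscle and in adipose tissue. The sterol and steroid hormone genes gave 3 of 6 in liver and 1 of 6 in each other tissue, the vitamin A and D genes 5 of 6 in liver, 1 in muscle and 3 in adipose tissue, and the fatty acid genes 6 of 11 in liver and 4 of 11 in each other tissue. All 3 genes whose substrates are little known were detected in liver and 1 of them in each other tissue.

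The 11 genes detected in no tissue were CYP51A1, CYP1A2, CYP2B6, CYP2J2, CYP19A1, CYP11B1, CYP27C1, CYP2F1, CYP4A22, CYP4B1 and CYP4Z1. They included CYP51A1, a step of cholesterol synthesis, whose probe was above the detection score on 1 liver array, and CYP1A2, a drug enzyme of human liver, which was above it on 0 arrays of any tissue. Near the threshold in liver, CYP3A4 was above the score on 6 arrays, CYP4V2 on 8 and CYP2U1 on 9, while CYP4A22 missed it with 5 arrays and CYP2B6 with 2. In muscle CYP39A1 passed with 6 arrays and CYP27B1 missed with 5, and in adipose tissue CYP4F2 passed with 8 and CYP4A11 missed with 5. A human probe that stays at background on baboon RNA sets no level for the gene.

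The first comparison asked how far the P450 genes differ between tissues. For the 32 detected genes, limma called 25 higher and 1 lower in liver than in muscle, a total of 26, where 52.9% of the 10966 genes tested were called in either direction and 26.4% were called higher in liver. Against adipose tissue 23 were higher and 2 lower in liver, where 49% of all genes were called and 22.8% were higher. Between adipose tissue and muscle 6 were called, all higher in adipose tissue, where 39.7% of all genes were called and 23.9% were higher. The median P450 difference was 0.99 for liver minus muscle against -0.03 over all genes, and 0.74 for liver minus adipose tissue against -0.04 over all genes. Since 20 of the 32 genes passed the detection rule through liver alone, these counts and medians describe the genes and do not test them. The other tissues' probes of those 20 genes were at or near background, so their levels are given below mostly as ranges or lower bounds. The counts above include tests of these genes against such background signal. Without the weak arrays the counts were 26, 26 and 6.

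**Figure D1:**
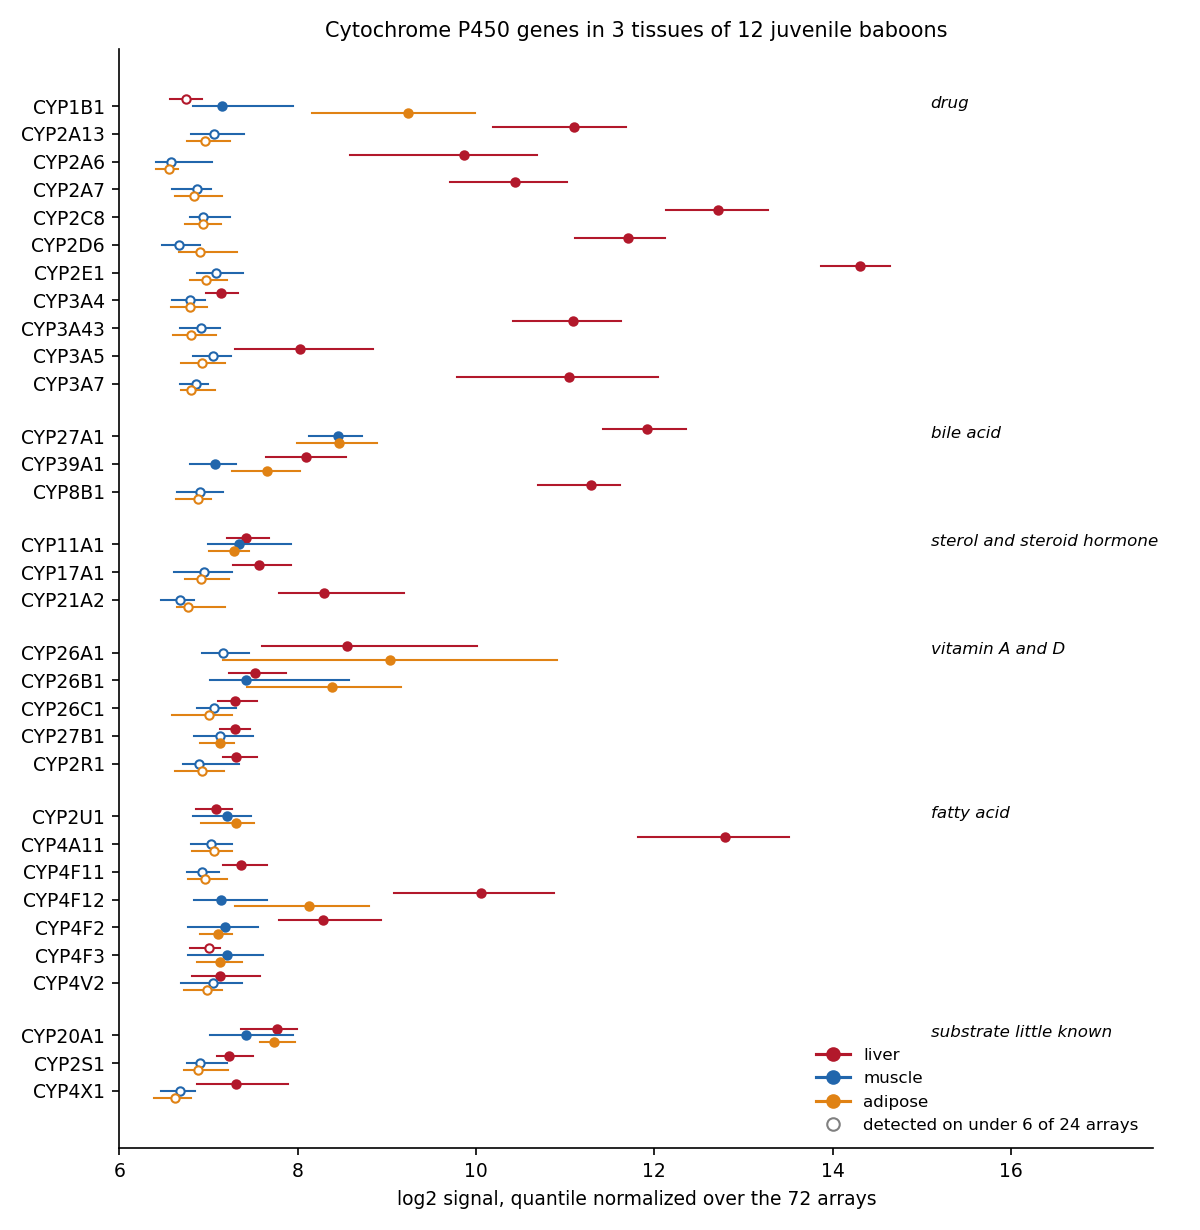
Log2 signal of the 32 detected P450 genes (rows, grouped by function) in liver, muscle and adipose tissue, normalized over all 72 arrays. Dots are means and lines run from the lowest to the highest array, without the 4 weak arrays and the muscle array with high ALB, and open circles mark tissues in which the gene was detected on under 6 of 24 arrays. Liver lies to the right for most genes, and adipose tissue has the highest mean for CYP1B1, CYP26A1, CYP26B1 and CYP2U1.

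Among the drug genes CYP2E1, which oxidizes ethanol, ketones and other small molecules, had high signals in liver alone. Its signal was 13.87 to 14.64 on the liver arrays that were not doubted, 6.88 to 7.39 on muscle arrays and 6.79 to 7.21 on adipose arrays, with no overlap. CYP2E1 is a standard marker of hepatocytes, and it was detected on 22 of 24 liver arrays, 2 muscle arrays and 3 adipose arrays.

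CYP2C8, which acts on drugs and on arachidonic acid, was 12.13 to 13.28 in liver, 6.80 to 7.25 in muscle and 6.74 to 7.14 in adipose tissue. CYP2D6, which oxidizes many drugs with a basic nitrogen, was 11.11 to 12.12 in liver, 6.48 to 6.91 in muscle and 6.66 to 7.32 in adipose tissue. These liver ranges did not overlap those of the other tissues. For 4 further drug genes that were detected on no adipose array, the difference has only a lower bound: liver was at least 13.6-fold above adipose tissue for CYP3A7, the CYP3A form of human fetal liver, at least 12.6-fold for CYP3A43, at least 8.76-fold for CYP2A7 and at least 5.19-fold for CYP2A6, which oxidizes nicotine and coumarin in humans. Each bound sets the mean liver signal against the lowest signal of any detected probe on the adipose arrays, or the probe's own signal where that was higher.

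The other drug genes detected in liver were CYP2A13, CYP3A5 and CYP3A4. CYP2A13 was 10.19 to 11.68 in liver and was detected on 3 muscle arrays, CYP3A5 was detected on all 24 liver arrays and was at least 1.66-fold above muscle, and CYP3A4, the main drug-oxidizing form of adult human liver, had a liver range of 6.97 to 7.33 against 6.59 to 6.96 in muscle, next to the background. The probes of the CYP2A, CYP3A, CYP4A, CYP4F and CYP2D families were made for human genes with close copies, so signal may be shared between members of a family and the values of these genes are uncertain in that respect.

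CYP1B1, which oxidizes estrogens and polycyclic hydrocarbons in tissues other than liver, ran the opposite way. It was detected on 0 liver, 8 muscle and 24 adipose arrays, and its adipose range of 8.15 to 9.99 lay above the muscle range of 6.82 to 7.95. Adipose tissue exceeded muscle by 2.09 ± 0.09 (SE; limma, adjusted p = 1.31e-29) and was at least 4.07-fold above liver.

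All 3 detected bile acid genes had their highest mean signal in liver. CYP8B1, the sterol hydroxylase that directs synthesis toward cholic acid, was 10.70 to 11.61 in liver and 6.65 to 7.17 in muscle, and it was at least 12.5-fold above adipose tissue. CYP27A1, which oxidizes the sterol side chain in mitochondria of many cell types, was detected on all 24 muscle and all 24 adipose arrays, with 8.13 to 8.72 in muscle, 7.99 to 8.89 in adipose tissue and 11.43 to 12.36 in liver. Its liver excess over muscle was 2.59 ± 0.33 over all arrays (limma, adjusted p = 1.77e-10) and 3.59 without the doubted arrays. CYP39A1, an oxysterol hydroxylase, was 0.96 ± 0.06 higher in liver than in muscle (adjusted p = 1.26e-22) and 0.58 ± 0.06 higher in adipose tissue than in muscle (adjusted p = 3.767e-13).

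Of the genes of steroid hormone synthesis, CYP21A2 and CYP17A1 are best known from the adrenal gland. CYP21A2 was detected on 23 liver arrays and 0 muscle arrays and was at least 1.82-fold above muscle, and its probe may share signal with a close pseudogene copy known in humans. CYP17A1 was 7.27 to 7.93 in liver and 6.61 to 7.26 in muscle, where it was detected on 1 array. CYP11A1, the mitochondrial enzyme that starts steroid synthesis, stayed near background in all 3 tissues, with means of 7.42, 7.34 and 7.28 in liver, muscle and adipose tissue, and was not called in any tissue comparison.

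CYP26A1 and CYP26B1 break down retinoic acid. CYP26A1 was detected on all 24 liver and all 24 adipose arrays and on 4 muscle arrays, at 7.60 to 10.01 in liver, 7.17 to 10.91 in adipose tissue and 6.93 to 7.46 in muscle, which gave it one of the widest ranges within a tissue. Liver minus adipose tissue was -0.44, which was not called over all arrays (limma, adjusted p = 0.0767) and was called without the doubted arrays (adjusted p = 0.0317). CYP26B1 was lower in liver than in adipose tissue by 0.84 ± 0.16 on the log2 scale (adjusted p = 5.545e-06) and did not differ detectably between liver and muscle (-0.03, adjusted p = 0.875). The vitamin D genes CYP2R1 and CYP27B1 and the retinoic acid gene CYP26C1 were close to background in liver, at 7.16 to 7.54, 7.12 to 7.46 and 7.11 to 7.54, and each range overlapped that of muscle.

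Among the fatty acid genes, CYP4A11, the main fatty acid omega-hydroxylase of human liver and a target of PPAR alpha, was 11.82 to 13.51 in liver and 6.80 to 7.26 in muscle, with no overlap. CYP4F12 was 9.07 to 10.87 in liver, 7.30 to 8.80 in adipose tissue and 6.84 to 7.65 in muscle, and it was called in all 3 comparisons, with liver 2.58 ± 0.19 above muscle, liver 1.62 above adipose tissue and adipose tissue 0.95 ± 0.19 above muscle (limma, adjusted p = 7.368e-19, 4.165e-11 and 2.102e-05). CYP4F2, which oxidizes leukotriene B and vitamin K in humans, exceeded muscle by 1.09 ± 0.06 (adjusted p = 9.997e-25), and CYP4F11, detected on no muscle array, was at least 1.01-fold above muscle. CYP4V2, CYP2U1 and CYP4F3 were not called in any tissue comparison.

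The genes with little known substrates had small differences. CYP20A1 was called higher in liver and in adipose tissue than in muscle (0.35 and 0.30), CYP2S1 was 7.09 to 7.50 in liver and 6.76 to 7.20 in muscle, and CYP4X1 was 6.87 to 7.89 in liver and 6.47 to 6.85 in muscle. A probe was detected on 18 liver arrays and 1 muscle array for CYP2S1 and on 17 and 1 for CYP4X1.

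The second comparison asked whether maternal undernutrition changed P450 expression in the offspring's liver. Limma called 0 of 30 P450 genes between MUN and CON on chow, as it called 0% of the 8685 genes tested. At an unadjusted p under 0.05 there was 1 P450 gene, where 3.94% of all genes passed, and with an ordinary t statistic of the same model 0 were called. Several of the genes were far lower on the weak arrays of MUN, and their values are given with and without these arrays. Leaving them out leaves fewer males in MUN than in CON, and the fits without them had no sex term.

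CYP2E1 shows this. On chow its 6 CON arrays ran from 13.66 to 14.21 with a median of 14.04, and the MUN arrays were 13.97, 14.11, 14.27, 6.76, 13.59 and 7.42 in replicates 1 to 6, where 6.76 and 7.42 are the weak arrays. The remaining 4 MUN values overlapped the CON range. MUN minus CON on chow was -2.32 ± 1.23 over all arrays (limma, adjusted p = 0.964) and -0.03 ± 0.11 without the weak arrays. On HFCS the CON arrays ran from 13.64 to 14.41 with a median of 14.01, and the MUN arrays were 14.17, 13.98, 13.86, 7.49 (weak), 13.79 and 14.03.

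The bile acid genes had the same form. For CYP27A1 the CON arrays on chow were 12.01, 11.90, 11.60, 11.97, 11.36 and 11.32, and the MUN arrays 11.59, 11.91, 11.64, 6.88 (weak), 11.19 and 6.86 (weak). For CYP8B1 the CON arrays were 11.03, 10.94, 11.04, 11.00, 10.84 and 11.18, and the MUN arrays 10.84, 11.16, 10.68, 6.98 (weak), 10.91 and 7.38 (weak). Apart from the weak arrays the groups overlapped in both genes. MUN minus CON was -1.68 ± 0.85 for CYP27A1 and -1.35 ± 0.71 for CYP8B1 over all arrays (adjusted p = 0.964 for each in limma), and -0.12 ± 0.18 and -0.12 ± 0.14 without the weak arrays. CYP39A1 was the 1 gene with an unadjusted p under 0.05 on all arrays, at -0.31 ± 0.13 (unadjusted p = 0.0295, adjusted p = 0.964, limma), and was -0.15 without the weak arrays.

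**Figure D2:**
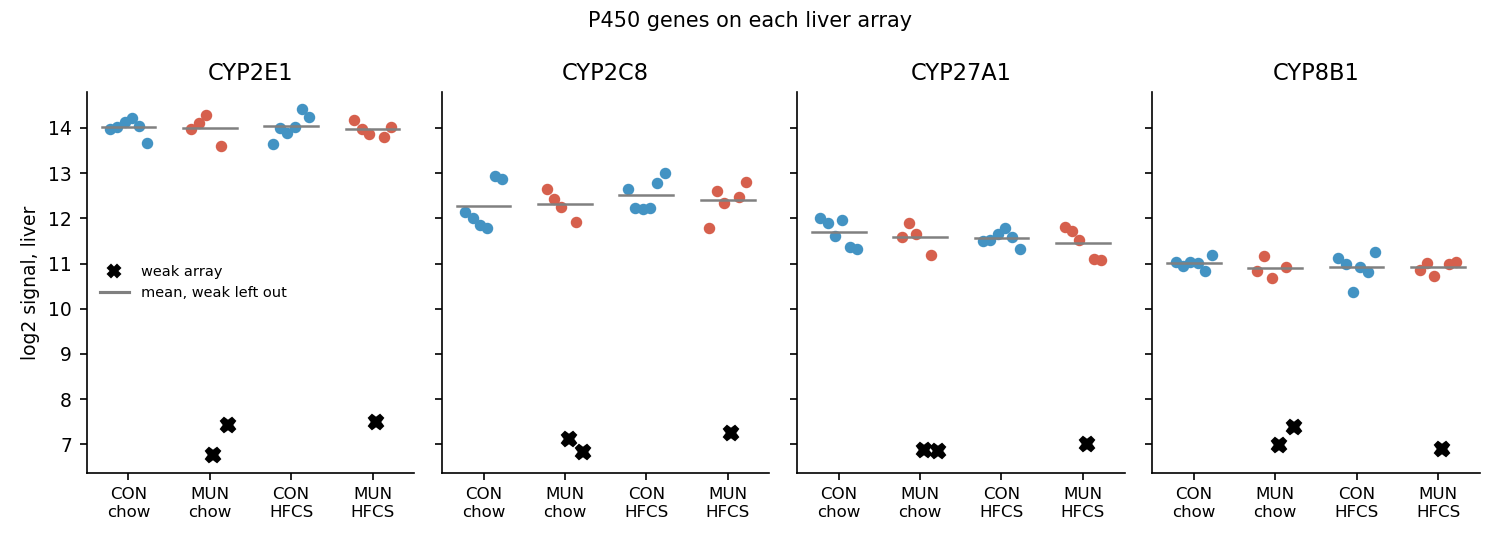
Log2 signal of CYP2E1, CYP2C8, CYP27A1 and CYP8B1 on each of the 24 liver arrays, by maternal group and diet (CON in blue, MUN in red). Crosses are the 3 weak arrays, all in MUN, and grey lines are group means without them. In each gene the crosses lie between 6.76 and 7.49 and all other arrays above 10.

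CYP2C8 moved from -1.74 ± 0.98 to 0.05 ± 0.24 when the weak arrays were left out. Over the drug genes, 7 of 10 were below 0 with all arrays, with a median of -0.38, and the median was -0.00 without the weak arrays. For the 3 bile acid genes the median was -1.35 and then -0.12. Over all 30 P450 genes 18 were below 0, with a median of -0.05 against 0.04 for all genes, and without the weak arrays 16 were below 0, with a median of -0.01 against 0.01. Nothing was called without the weak arrays either, where the count at an unadjusted p under 0.05 was 0 P450 genes and 3.83% of all genes.

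**Figure D3:**
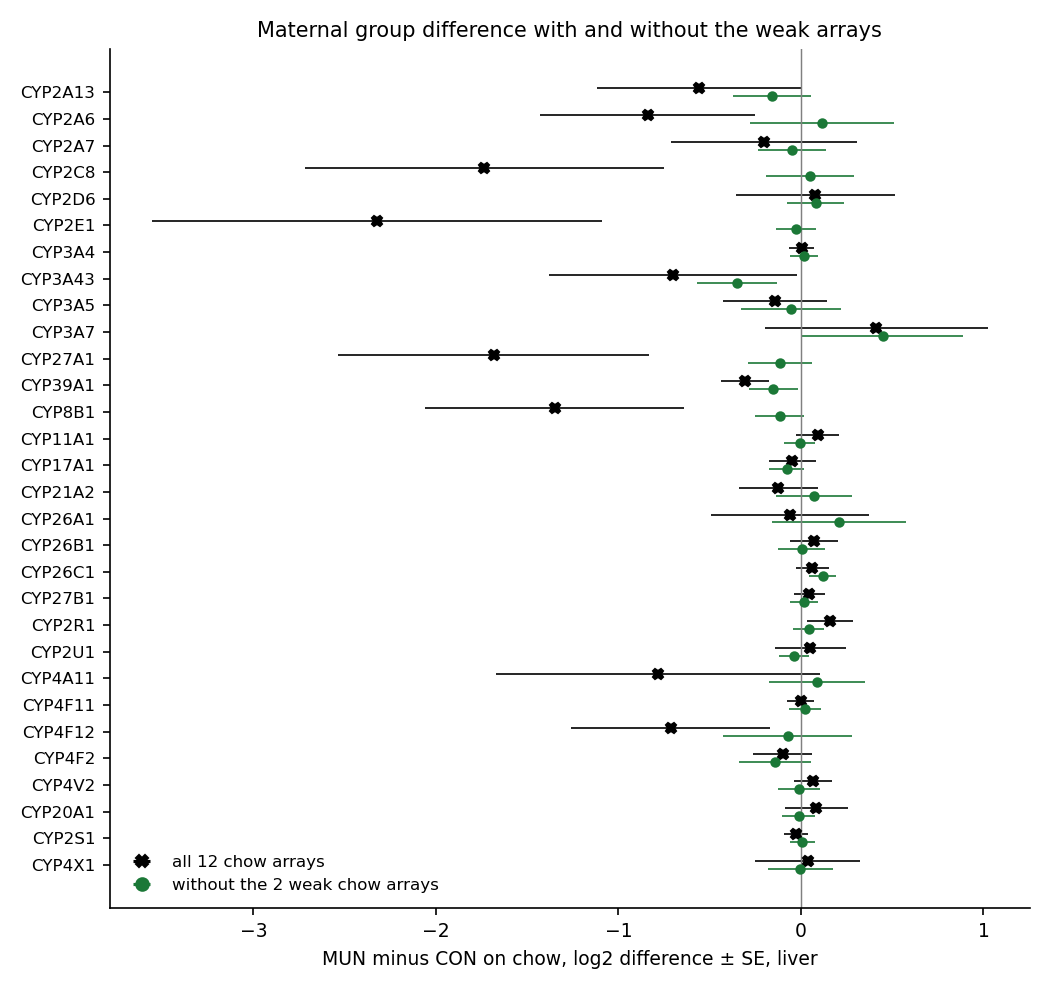
MUN minus CON on chow in liver for the 30 detected P450 genes, as log2 difference with its standard error. Black crosses use all arrays and green dots leave out the weak arrays, 2 of which are on chow. CYP2E1 moves from -2.32 to -0.03 and CYP27A1 from -1.68 to -0.12, while genes near background hardly move.

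The weak arrays did not lack all P450 signal, and many of the genes that were low were shared between the liver ones, though not all. Set against the range of the other 21 liver arrays, MUN replicate 4 on chow had 12 of the 30 genes below the range, 13 within and 5 above, MUN replicate 6 on chow had 12, 11 and 7, and MUN replicate 4 on HFCS had 13, 9 and 8. The share of all liver genes outside the range on these arrays was not computed. These counts therefore describe the arrays and cannot show whether P450 genes stood out from other genes. Below the range on all 3 were 7 genes: CYP2E1, CYP2C8, CYP27A1, CYP8B1, CYP2A6, CYP4F12 and CYP21A2. Below it on 2 were CYP2A7, CYP2D6, CYP39A1, CYP3A43 and CYP4A11, and 6 genes were below it on 1.

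On the MUN replicate 4 chow array CYP2E1 was at 6.76, while CYP2D6 was at 12.61, above the 10.77 to 11.77 of the other arrays, and CYP2A13 at 12.47, above 9.85 to 11.33. On the MUN replicate 6 chow array CYP27A1 and CYP4A11 were at 6.86 and 6.77, while CYP2A7 was at 11.71, above 9.37 to 10.68, and CYP3A7 at 12.42, above 9.45 to 11.69. On these 2 arrays ALB was 14.24 and 13.88, within or above the 13.65 to 14.17 of the other liver arrays, and 15 and 17 of the 30 P450 genes were detected, against 5 on the MUN replicate 4 HFCS array, where ALB was 11.61. The weak muscle array had CYP27A1 at 14.12, where the other muscle arrays had 8.03 to 9.22, CYP26B1 at 11.31 against 7.05 to 8.46, and ALB at 10.78. What produced these arrays was not tested.

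On the HFCS diet limma again called 0 of 30 P450 genes in liver between MUN and CON (0% of all genes), and 0 had an unadjusted p under 0.05 with all arrays, where 2.58% of all genes did. The smallest p-values belonged to CYP2D6 (-0.78, and -0.26 without the weak array), CYP4X1 (0.40 and 0.04) and CYP26C1 (0.12 and 0.04). Without the weak array CYP4A11 was 0.53 higher in MUN (unadjusted p = 0.0454, adjusted p = 0.923, limma), with 13.05 to 13.74 on 5 MUN arrays and 12.45 to 13.66 on 6 CON arrays, which overlapped. It was the only P450 gene with an unadjusted p under 0.05 there, where 5.35% of all genes had one. Over both diets, CYP27A1 was -1.27 in MUN (unadjusted p = 0.0469, adjusted p = 0.79, limma) and -0.12 without the weak arrays, CYP8B1 was -1.004 and -0.05, and CYP2E1 was -1.73 and -0.03. Of the 30 genes 0 were called over both diets (0% of all genes), and 1 had an unadjusted p under 0.05 with all arrays and 0 without the weak ones (3.77% and 6.03% of all genes).

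The third comparison asked how liver P450 expression differed after 7 weeks of HFCS. With all arrays limma called 0 of 30 genes within CON, within MUN, over the 2 maternal groups together, or between the diet changes of MUN and CON, each beside 0% of all genes, and 0 had an unadjusted p under 0.05 in any of the 4, where 0.622%, 9.78%, 2.42% and 3.32% of all genes did. Without the weak arrays the same tests called 0 and had 0, 1, 3 and 0 genes at an unadjusted p under 0.05, beside 3.36%, 3.29%, 4.05% and 2.76% of all genes. These fits did not use the pairing of the arrays by animal. With the animal as a replicate block as well, 0 were called and 1, 4, 4 and 0 genes had an unadjusted p under 0.05 in the same order. The share of all genes is not given for that fit, so these counts cannot be set against it. CYP2E1 differed between the diets by 0.02 in CON, and in the animals without a weak array its change ran from -0.31 to 0.45 in 6 CON animals and from -0.29 to 0.19 in 4 MUN animals.

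CYP26A1, the main retinoic acid hydroxylase of liver, had the smallest p of the diet comparisons once the weak arrays were left out. In CON its liver signal on chow was 9.99, 8.05, 8.80, 8.83, 8.33 and 8.53 in replicates 1 to 6, and on HFCS 9.45, 8.43, 7.68, 8.39, 7.95 and 7.53. In MUN replicates 1, 2, 3 and 5 it was 8.82, 9.43, 7.97 and 9.63 on chow and 7.99, 8.05, 8.03 and 7.46 on HFCS, and MUN replicate 6 had 7.77 on HFCS. Signals were lower on HFCS in 5 of 6 CON animals and in 3 of 4 MUN animals, and the chow and HFCS ranges overlapped in both groups. HFCS minus chow over both groups was -0.81 ± 0.25 without the weak arrays (unadjusted p = 0.00416, adjusted p = 0.954, limma), which was not called, and -0.42 with all arrays, on which the weak arrays had 7.18, 8.80 and 10.11. Within CON the difference was -0.52 and within MUN it was -1.10, with no call for the contrast of these changes. With the animal as a replicate block as well, the adjusted p was 0.254.

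Adipose CYP26A1 was also lower on HFCS in most animals without passing the test. Its CON signals on chow were 9.05, 10.28, 8.82, 10.64, 8.83 and 9.82, and on HFCS 9.10, 7.36, 7.52, 9.27, 8.30 and 9.15. Its MUN signals on chow were 11.21, 8.54, 11.31, 9.45, 8.88 and 10.76, and on HFCS 10.31, 8.24, 10.95, 7.85, 10.38 and 10.00. Of the 6 animals in each group 5 were lower on HFCS, and the exceptions were CON replicate 1 and MUN replicate 5. The difference was -1.12 ± 0.55 in CON, -0.40 in MUN and -0.76 ± 0.39 over both (adjusted p = 0.659, 0.999 and 0.651, limma). With the animal as a block the unadjusted p was 0.0372, 0.440 and 0.0449 in the same order (adjusted p = 0.501, 0.977 and 0.513, limma).

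**Figure D4:**
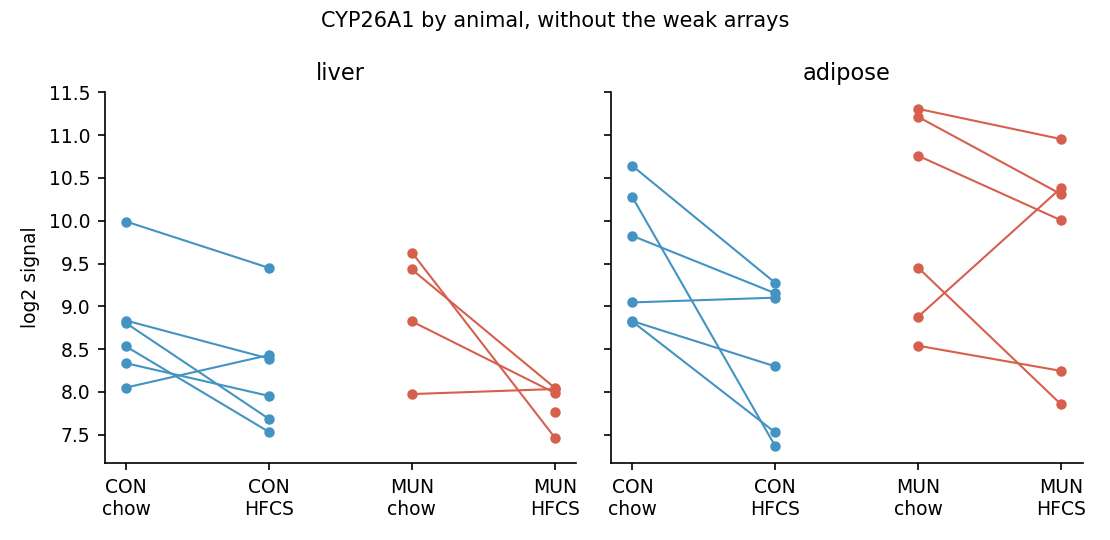
CYP26A1 log2 signal on chow and on HFCS in liver and in adipose tissue, with a line for each animal (CON in blue, MUN in red) and no weak arrays, so that MUN replicate 6 has only its HFCS point in liver. In liver 5 of 6 CON and 3 of 4 MUN lines go down, and in adipose tissue 5 of 6 lines go down in each maternal group.

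The 2 CYP26A1 probes followed each other across arrays, with a Pearson correlation of 0.871 over the 21 liver arrays and 0.891 over the 24 adipose arrays (a description, since arrays share animals). The 5 detected mesothelial markers of 7 summed in adipose tissue to 37.30 to 40.37 in CON on chow, 37.19 to 39.66 in CON on HFCS, 36.95 to 40.28 in MUN on chow and 38.26 to 40.87 in MUN on HFCS. In liver the 4 detected red blood cell markers of 5 summed to 34.69 to 38.26 in CON on chow and 37.12 to 43.25 in CON on HFCS, and to 35.85 to 39.10 and 37.70 to 42.28 in MUN. The median of these 4 red blood cell markers was 0.89 for HFCS minus chow over both groups without the weak arrays, and 3 of the 4 had an unadjusted p under 0.05, beside 4.05% of all genes. The part of these markers in the CYP26A1 values was not tested.

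Other liver genes with the smallest p-values between the diets were CYP2A7 and CYP2D6. CYP2A7 was lower on HFCS in 6 of 6 CON animals, by 0.03 to 0.79, and in 2 of 4 MUN animals, which gave -0.35 over both groups without the weak arrays (unadjusted p = 0.0125, adjusted p = 0.998, limma) and -0.50 with them. These are values of the brighter of its 2 detected probes, which had means of 9.94 and 9.51 and correlated at 0.641 over the 21 arrays. CYP2D6 was lower in 4 of 4 MUN animals and in 3 of 6 CON animals. Its change in MUN was -0.82 with all arrays and -0.29 without the weak ones, and the difference between the changes in MUN and CON was -0.86 and -0.34, which was not called. CYP3A43 was 0.32 higher on HFCS over both groups without the weak arrays (unadjusted p = 0.0457, adjusted p = 0.998, limma), and its 2 probes correlated at only 0.114 over the 21 arrays. In CON the 3 smallest p-values were those of CYP26A1 (-0.47), CYP39A1 (-0.10) and CYP4F11 (-0.06), and 22 of 30 genes were below 0, with a median of -0.03 against 0.00 over all genes. CYP39A1 was 0.24 higher on HFCS in MUN and differed by 0.34 between the changes in MUN and CON, which became 0.06 and 0.18 without the weak arrays, and CYP3A5 differed by 0.41 and then 0.07.

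In muscle 10 P450 genes were tested and limma called 0 in each of the 7 comparisons, beside 0.0745% of all genes for HFCS minus chow in CON (0.522% without the weak array) and 0% in the other 6. At an unadjusted p under 0.05 there were 0 P450 genes in any of the 7 with all arrays, where the share of all genes was 7.34% and 4.27% for MUN minus CON on chow and on HFCS, 13.3% and 1.4% for HFCS minus chow in CON and in MUN, 6.22% for the difference of these changes, and 5.27% and 4.19% for diet and maternal group overall. Without the weak array there were 1, 0, 1, 1, 1, 1 and 0 P450 genes in the same order, beside 7.08%, 9.5%, 16.4%, 3.81%, 10.6%, 9.44% and 5.66% of all genes. CYP27A1 had large values on all arrays, -1.14 for MUN minus CON on chow and -1.09 for HFCS minus chow in CON, which became -0.21 and -0.16 once the weak chow array of CON replicate 5 was left out, and -0.02 and 0.02 without the array with high ALB as well. That array, CON replicate 1 on chow, had the highest CYP27A1 signal of the remaining muscle arrays (9.26, others 8.02 to 8.62). CYP11A1 was lower on HFCS in 5 of 5 CON animals, by 0.09 to 0.46, and higher in 5 of 6 MUN animals, and the differences were -0.22 in CON (unadjusted p = 0.0307, adjusted p = 0.253, limma) and 0.08 in MUN without the weak array. The difference between them was 0.30 (unadjusted p = 0.0332, adjusted p = 0.425, limma). The signal of CYP11A1 in muscle ran only from 7.01 to 7.82.

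CYP26B1 was higher on HFCS in muscle of 6 of 6 MUN animals, by 0.02 to 1.43, and in 3 of 5 CON animals, and HFCS minus chow over both groups was 0.31 without the weak array (unadjusted p = 0.031, adjusted p = 0.483, limma) and -0.03 with it. The rises were largest in MUN replicate 5 (1.43) and CON replicate 4 (1.16), and in the other animals none exceeded 0.27. CYP4F12 was lower in MUN on chow by 0.28 without the weak array (unadjusted p = 0.0468, adjusted p = 0.699, limma). Its highest signal, 7.83, was on the array with high ALB, and without that array as well the difference was -0.16 and 0 P450 genes had an unadjusted p under 0.05 in this comparison. Over both diets MUN minus CON in muscle was -0.15 for CYP4F12, -0.14 for CYP1B1 and -0.53 for CYP27A1, and on HFCS it was 0.12 for CYP11A1, -0.14 for CYP1B1 and -0.08 for CYP39A1. HFCS minus chow over both groups was -0.49 for CYP27A1, -0.09 for CYP4F12 and 0.11 for CYP1B1, and in MUN it was -0.10 for CYP39A1. None of these was called.

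In adipose tissue, where no array was weak, limma called 0 of 12 genes in each of the 7 comparisons. The share of all genes called was 0.0216% for MUN minus CON on HFCS, 0.0108% for HFCS minus chow over both groups and 0% in the other 5. On HFCS 2 P450 genes had an unadjusted p under 0.05 between MUN and CON (9.73% of all genes). There was 1 such gene for HFCS minus chow in MUN (3.86%), for the difference of the diet changes (3.86%) and for MUN minus CON over both diets (8.97%), and 0 for MUN minus CON on chow (3.51%), HFCS minus chow in CON (7.58%) and HFCS minus chow over both groups (7.73%). These counts are from the fit without the animal as a block, and the diet values of CYP26A1 with it are given above. On HFCS CYP26A1 was 1.17 ± 0.55 higher in MUN (unadjusted p = 0.0432, adjusted p = 0.492, limma) and CYP2U1, a fatty acid hydroxylase, was lower by 0.19 ± 0.08 on the log2 scale (unadjusted p = 0.03, adjusted p = 0.439, limma). Over both diets CYP26A1 was 0.81 ± 0.39 higher in MUN (unadjusted p = 0.0473, adjusted p = 0.553, limma). With the animal as a block its unadjusted p was 0.0529 (adjusted p = 0.663, limma). CYP2U1 was also 0.19 lower on HFCS in MUN (unadjusted p = 0.0365, adjusted p = 0.999, limma), and its change differed by -0.25 between MUN and CON (adjusted p = 1.0). CYP11A1 was lower on HFCS in 6 of 6 MUN animals, by 0.01 to 0.27. CYP27A1 was -0.16 for HFCS minus chow in CON, and 0.24 for MUN minus CON on HFCS. CYP1B1 was -0.34 for MUN minus CON on chow, beside 0.09 for CYP27B1 and -0.07 for CYP4F2.

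The sexes were set against each other in a fit that held the animal as a random block. In liver limma called 0 P450 genes beside 0.0345% of all genes, and 2 of 30 had an unadjusted p under 0.05 beside 7.62% (3 without the weak arrays, beside 9.53%). CYP27A1 was 1.41 higher in females with all arrays and 0.33 without the weak arrays, which were all from males (unadjusted p = 0.00765, adjusted p = 0.271, limma, without them). Its range without the weak arrays was 11.94 to 12.47 on 12 female arrays and 11.50 to 12.43 on 9 male arrays. CYP3A7 was lower in females by 0.80 on the log2 scale (unadjusted p = 0.00715, adjusted p = 0.265) and CYP4X1 by 0.32 (adjusted p = 0.325) without the weak arrays, and CYP2E1 moved from 1.70 to 0.03. In muscle 0 of 10 were called beside 0.0994% of all genes, 1 had an unadjusted p under 0.05 with and without the weak array (9.44% and 13.6% of all genes), and this gene, CYP11A1, was -0.15 (-0.17 without the weak array, adjusted p = 0.181), with CYP4F12 at 0.14 and CYP4F2 at -0.11. In adipose tissue 0 of 12 P450 genes were called beside 0.625% of all genes and 0 had an unadjusted p under 0.05 beside 13.9%, and CYP26B1 was -0.30, CYP1B1 -0.25 and CYP27A1 0.10.

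The 2 biopsies of each animal allowed a further comparison, chosen after the data were seen: whether animals kept their own P450 level from chow to HFCS. It used the animals without a weak array in the tissue, and tested differences between animals with a moderated F statistic in limma. In liver 4 of 30 genes (13.3%) differed between animals at an adjusted p under 0.05, where 4.82% of all genes did. They were CYP4F12 (F = 34.1, adjusted p = 0.000103), CYP3A5 (F = 9.17, adjusted p = 0.0146), CYP3A7 (F = 8.69, adjusted p = 0.0175) and CYP4X1 (F = 6.49, adjusted p = 0.0407). Among animals of the same sex and maternal group CYP4F12 and CYP3A5 remained (adjusted p = 0.000173 and 0.0267), where 2.36% of all genes passed. The count of 4 depends on single animals: it was 2 without CON replicate 3 or CON replicate 6 and 6 without MUN replicate 1.

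CYP4F12, which hydroxylates fatty acids and some antihistamines in humans, had the clearest levels by animal. In liver its chow and HFCS signals were 10.00 and 9.78 in CON replicate 1, 10.28 and 9.88 in replicate 2, 9.60 and 9.71 in replicate 3, 10.85 and 10.91 in replicate 4, 8.98 and 9.11 in replicate 5, and 10.61 and 10.56 in replicate 6. In MUN they were 10.10 and 10.23 in replicate 1, 10.51 and 10.60 in replicate 2, 10.14 and 10.02 in replicate 3, and 9.17 and 9.51 in replicate 5. The animal means spanned 9.05 to 10.88, and the difference between the biopsies of an animal had a median of 0.125 and a maximum of 0.401. High and low animals occurred in both maternal groups. CYP4F12 had 1 probe on the array, so no other probe could be set beside it. Whether signal of other CYP4F genes enters these values was not tested.

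The chow and HFCS signals of CYP4F12 correlated across the 10 animals with a Pearson r of 0.939 (permutation p = 6e-05, adjusted p = 0.00312 over 52 relations) and a Spearman rho of 0.939 (adjusted p = 0.00676), and r was 0.904 without the 2 animals farthest from the median on chow. A correlation above 0.8 occurred in 3.43% of all liver genes.

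Adipose CYP4F12 was ordered much as in liver. Its chow and HFCS signals were lowest in CON replicate 5 (7.51 and 7.70) and MUN replicate 5 (7.72 and 7.90) and highest in CON replicate 4 (9.22 and 9.16), with animal means from 7.60 to 9.19. It was the only 1 of 12 adipose genes that differed between animals (F = 12.3, adjusted p = 0.00249, limma), where 1.85% of all genes did, and it remained among animals of the same sex and group (adjusted p = 0.0015). Its chow and HFCS signals had r = 0.836 across 12 animals (permutation p = 0.00101, adjusted p = 0.0263), rho = 0.755 (adjusted p = 0.109), and r = 0.695 without the 2 farthest animals. The liver mean and the adipose mean of an animal had r = 0.953 over 10 animals (permutation p = 4e-05, adjusted p = 0.00112 over 28 relations), rho = 0.867 (adjusted p = 0.0561) and r = 0.895 without the 2 farthest animals, and 0.27% of the 7420 genes measured in both tissues had an r as high.

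**Figure D5:**
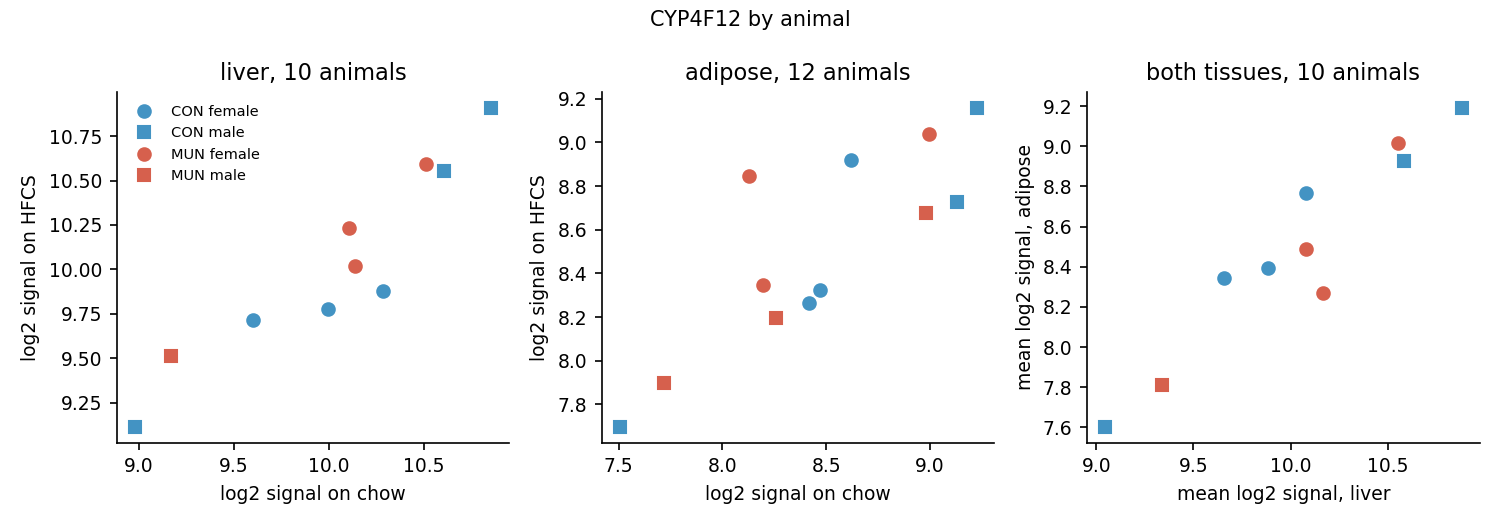
CYP4F12 log2 signal of each animal on chow (x) and HFCS (y) in liver and in adipose tissue, and the mean of each animal in liver (x) and adipose tissue (y). Circles are females and squares males, CON is blue and MUN red, and animals with a weak liver array are left out of the panels that use liver. Animals high on chow were also high on HFCS, and animals high in liver were also high in adipose tissue, with r of 0.939, 0.836 and 0.953.

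With muscle, CYP4F12 had r = 0.717 for liver (8 animals) and 0.746 for adipose tissue (10 animals), which did not pass (adjusted p = 0.245 and 0.136, permutation tests). In muscle the gene was near background, and 0 of 10 P450 genes differed between animals there, where 0.782% of all genes did. For the other 3 liver genes the correlation of chow with HFCS was lower: CYP3A5 had 0.769 with animal means of 7.29 to 8.50, CYP3A7 0.748 with means of 9.84 to 11.94, and CYP4X1 0.752 with means of 6.70 to 7.59. None of these 3 passed (adjusted p = 0.152 for each, permutation tests). Without the 2 farthest animals, which also narrows the range of signals, r was 0.798 for CYP3A5, 0.318 for CYP3A7 and 0.254 for CYP4X1. One negative relation between tissues passed by r alone, that of CYP11A1 in liver with CYP11A1 in muscle (r = -0.831 over 8 animals, exact permutation p = 0.0034, adjusted p = 0.0476), with a rho of -0.833 (adjusted p = 0.144) and an r of -0.602 without the 2 farthest animals.

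Genes that work with the P450 enzymes were measured in liver beside them, without the weak arrays. Of these lists 4 of 7 redox partners, 6 of 8 heme synthesis genes, 9 of 14 regulators, 13 of 15 other bile acid genes and 13 of 18 conjugation genes were detected, and limma called 0 of each in any comparison between diets or maternal groups. For HFCS minus chow over both groups, 0, 0, 2, 3 and 2 of them had an unadjusted p under 0.05, beside 4.05% of all genes, and for MUN minus CON over both diets 1, 2, 1, 1 and 0 had, beside 6.03% of all genes.

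Between the diets, the smallest p-values of the bile acid list were those of ABCC2, a canalicular exporter of conjugates (-0.31, unadjusted p = 0.000324, adjusted p = 0.523, limma), and AKR1C4, a hepatic hydroxysteroid dehydrogenase (-0.35). Among the regulators they were those of NR1H3, the oxysterol receptor LXR alpha (0.22, adjusted p = 0.833), and NR5A2, a nuclear receptor of bile acid synthesis (-0.26). The 4 redox partners were all below 0, with a median of -0.08 against -0.00 for all genes, and the smallest p-values were those of CYB5A (-0.06) and CYB5R3 (-0.12). Between MUN and CON the 4 redox partners were all above 0, with a median of 0.11 against 0.00 for all genes. CYB5B, a cytochrome b5 of the mitochondrial outer membrane, was 0.35 (adjusted p = 0.763) and POR, the P450 oxidoreductase, 0.18. ACOX2, which shortens the side chain of bile acid precursors in peroxisomes, was -0.30 (unadjusted p = 0.00254, adjusted p = 0.503, limma), SLCO1B3, a hepatocyte uptake transporter, -0.17, NR5A2 -0.19 and PPARA, the fatty acid receptor PPAR alpha, 0.06.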

How the data were processed

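Total RNA of 72 biopsies was hybridized to Illumina HumanHT-12 v4 arrays. The authors extracted bead summaries with GenomeStudio and used Partek Genomics Suite, with versions not given in the sources used here. The deposited table of 47231 probes holds linear signal values from 62.0748 to 36505.6 that were not yet normalized, each with a detection score between 0 and 1. A second deposited table holds the authors' normalized signal intensity, with a median of 121.045 to 121.0475 on every array, and it lacks 11143 of the probes. Gene names came from the platform annotation, which gave 23458 probes a single symbol.

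Here the deposited signals were filtered on the authors' detection score (above 0.95 on 6 arrays of a tissue), converted to log2 and quantile normalized within a tissue, or over 72 arrays for tissue comparisons. The brightest probe stood for each of 8685 genes in liver, 8052 in muscle, 9277 in adipose tissue and 10966 across tissues. Group means were compared with limma 3.58.1 (R 4.3.3), sexes combined, with Benjamini-Hochberg adjustment over all genes, as the study's methods give no pairing. Sex and the replicate block used duplicateCorrelation (statmod 1.5.0). Figures used matplotlib 3.10.9. The scripts were tested on simulated data. Correlations used exact enumeration or 100000 permutations. Number of arrays limits the precision.

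The labels give each animal's identity, so chow and HFCS arrays pair by animal. The animal numbers of the liver labels carry an extra leading digit, which was dropped to match them to the other tissues. The deviations of same-animal pairs from their group means correlated at 0.16 to 0.62 in liver (10 pairs), -0.20 to 0.50 in muscle (11 pairs) and -0.08 to 0.40 in adipose tissue (12 pairs), without weak arrays.

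Named were all detected genes in the tissue comparison, the 3 genes with the smallest p in each group comparison, always CYP2E1, and in liver CYP8B1, CYP27A1 and CYP51A1. Genes named for their values without the weak arrays, the animals and the flagged arrays were chosen after the data were seen, as were the comparison of animals and the setting that joins the weak arrays with the block. The genes and lists were chosen with earlier results of these data known. CYP7A1 and CYP7B1 were not analysed here.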

Additional observations from a re-analysis of the deposited data

Results flagged for a closer look

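In groups of 6 arrays, 33 of the 208 combinations of gene, tissue and group had a highest or lowest array whose gap to the nearest other array exceeded 0.625 of the group's range, which chance gives in about 1 of 20 groups. Of these 33, 22 fell on weak arrays and 11 on others.

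On the weak liver array of MUN replicate 4 on HFCS, 10 genes were lowest of their group: CYP2E1 (7.49), CYP2C8 (7.25), CYP27A1 (7.01), CYP8B1 (6.89), CYP2A7 (6.85), CYP2D6 (7.94), CYP3A43 (6.94), CYP3A7 (7.16), CYP4A11 (7.83) and CYP4F12 (6.76). On the same array 5 genes were highest: CYP17A1 (8.17), CYP26A1 (10.11), CYP2R1 (7.87), CYP2U1 (8.33) and CYP4X1 (9.27). On the liver array of MUN replicate 6 on chow, CYP27B1 was highest (7.27) and CYP2A13 (6.73) and CYP4A11 (6.77) were lowest, and on that of MUN replicate 4 on chow CYP3A43 was lowest (6.66). On the weak muscle array of CON replicate 5 on chow, CYP27A1 (14.12), CYP26B1 (11.31) and CYP2U1 (10.31) were highest.

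On arrays that were not weak, 6 liver values stood apart. CYP4F2 was 8.61 in CON replicate 4 on HFCS, where the other 5 arrays of the group had 7.64 to 7.96, and CYP3A4 was 7.10 on the same array (others 6.83 to 6.90). CYP2D6 was 10.95 in CON replicate 3 on HFCS (others 11.43 to 11.66), CYP17A1 was 7.05 in CON replicate 6 on HFCS (others 7.33 to 7.46), CYP2R1 was 7.31 in CON replicate 2 on HFCS (others 6.97 to 7.04), and CYP2S1 was 7.27 in CON replicate 4 on chow (others 6.90 to 7.02).

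In muscle CYP26B1 was 8.34 in CON replicate 4 on HFCS, where the others had 7.22 to 7.48, and CYP11A1 was 7.83 in CON replicate 6 on chow (others 7.28 to 7.42). CYP4F2 was 6.74 in MUN replicate 2 on chow (others 7.23 to 7.43) and 7.34 in MUN replicate 5 on HFCS (others 7.09 to 7.18). In adipose tissue CYP20A1 was 8.27 in MUN replicate 1 on HFCS (others 7.94 to 8.05).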

How the results depend on the processing

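Background correction, detection filter, normalization, probe choice, array weights, an ordinary t statistic, the fold threshold, single animals left out and the weak arrays were varied. Over 24 group and sex comparisons, 586 counts of called P450 genes all stayed at 0, and the animal as a replicate block gave 0 in every group comparison and 26, 25 and 6 between tissues. The tissue counts of 26, 25 and 6 ranged over 23 to 27, 25 to 27 and 6 to 8, and over 23 to 26, 25 to 26 and 6 without single replicates. CYP4X1 was no longer called in liver minus muscle without the detection filter (0.08, adjusted p = 0.115, limma). Of 2115 values of named genes in group comparisons under these alternatives, 31 changed sign.

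These 31 were values of CYP2E1, CYP8B1 and CYP27A1, and the cause was not tested beyond the settings named. Outside the values counted here, CYP2C8 in liver (MUN minus CON on chow) and CYP26B1 in muscle (HFCS minus chow over both groups) also changed sign without the weak arrays. For MUN minus CON on HFCS, CYP8B1 was -0.659, 0.010 with array weights, 0.015 without the weak arrays, 0.015 with the replicate block as well, and -0.83 to 0.014 without single replicates. For HFCS minus chow in CON, CYP2E1 was 0.021, -0.035 with array weights and -0.091 to 0.097 without single replicates, and CYP8B1 was -0.093 and -0.128 to 0.024. For HFCS minus chow in MUN, CYP2E1 was 1.199, -0.001 without the weak arrays and -0.004 with the block as well. CYP8B1 there was 0.597 and -0.016 to 0.782 without single replicates. CYP27A1 was 0.694, -0.132 with array weights, -0.143 without the weak arrays, -0.118 with the block as well and -0.011 to 0.863 without single replicates. For the difference of the changes, CYP2E1 was 1.179, -0.002 without the weak arrays and -0.006 with the block as well, and CYP27A1 was 0.827 and -0.005. For HFCS minus chow over both groups, CYP2E1 was 0.610, -0.011 with array weights and -0.001 without the weak arrays and with the block. CYP8B1 was 0.252, -0.038 with weights, -0.034 without the weak arrays, -0.038 with the block as well and -0.055 to 0.342 without single replicates. CYP27A1 was 0.281, and -0.16, -0.140, -0.128 and -0.072 to 0.365 in the same settings. In muscle, without the weak array and the array with high ALB, CYP27A1 went from -1.093 to 0.024 for HFCS minus chow in CON, from -0.488 to 0.073 over both groups and from -0.531 to 0.028 for MUN minus CON over both diets.

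The 4 liver genes that differed between animals were 8 with the weak arrays included, 1 among probes detected on all 24 arrays, 2 within sex and maternal group, 3 with the authors' values, 4 with normexp and 3 without the detection filter, and 2 to 6 without single replicates (2 without CON replicate 3 or CON replicate 6, 6 without MUN replicate 1). The 1 adipose gene was 1 to 2 (2 without CON replicate 2 or MUN replicate 5). These alternatives for the animals were chosen after seeing the data. The low signal of probes near background limits what can be seen for most P450 genes outside liver.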

Other observations

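Among genes of the lists that belong in no comparison above, the conjugation and heme genes of liver with the smallest p-values, chosen after their values were seen and without the weak arrays, were EPHX1, the microsomal epoxide hydrolase (-0.29 for HFCS minus chow over both groups), and ALAS1, the first enzyme of heme synthesis (0.31 for MUN minus CON on HFCS, unadjusted p = 0.0047, adjusted p = 0.698, limma). Neither was called. The 4 detected red blood cell markers of liver had a median of 0.89 for HFCS minus chow over both groups and the 10 detected macrophage markers a median of -0.27 for MUN minus CON over both diets, beside -0.00 and 0.00 for all genes, and no gene of either list was called (3 in each had an unadjusted p under 0.05, beside 4.05% of all genes for the first comparison and 6.03% for the second).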
